A study of Mus musculus with 12 samples.

Results

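Stage 2 cells, a late intermediate in the conversion of mouse embryonic fibroblasts (MEF) to induced pluripotent stem cells (iPSC), were compared with the fibroblasts themselves by ATAC-seq. In this assay the Tn5 transposase cuts and tags accessible DNA, so that the reads in a region measure how open its chromatin is. The comparison was set by the titles of the libraries: 3 Stage 2 libraries (replicates 1 to 3) against 3 MEF libraries (replicates 1 to 3), which is 6 of the 12 libraries of the series. MEF were unsorted. Stage 2 cells were collected at day 6 + 4 of a protocol that the labels call 3c enhanced reprogramming and were sorted as Oct4-GFP+, by the fluorescence of an Oct4 reporter; Oct4 is the protein made from Pou5f1. Both groups had the strain label Mixed (C57BL/6 x 129). The meaning of 3c, the way the reprogramming factors were delivered, the type of reporter and the number of animals or cultures are not given in the sources used here. The p-values therefore reflect how much these libraries vary, a variation that may be technical. The groups differ in sorting as well as in stage, and the effects of the 2 cannot be told apart.

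A fibroblast keeps its identity through mesenchymal transcription factors, matrix and contractile genes, and the TGF-beta pathway, and it holds the genes of the pluripotent state in closed chromatin. Reprogramming by Oct4, Sox2, Klf4 and Myc reverses this: cells pass through a mesenchymal-to-epithelial transition, in which fibroblast enhancers close and genes of cell adhesion open, and then activate the pluripotency network of Nanog, Esrrb and their partners. Zeb and Snail proteins, which repress epithelial genes by binding E-box sequences in their promoters, are known opponents of that transition.

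The 6 libraries were of similar size, with 28847577 ± 3180359 reads in MEF and 26073784 ± 912481 in Stage 2 (SD, n = 3 each; two-sided exact permutation test, p = 0.3). They differed in how many of these reads lay in the 115000 counted regions. The share was 22.1%, 16.7% and 11.3% in the MEF libraries and 6.91%, 5.87% and 5.31% in the Stage 2 libraries, which left between 2933421 and 6261903 reads in regions for MEF and between 1390786 and 1735012 for Stage 2. Every MEF library was above every Stage 2 library, and p = 0.1 was the smallest value that an exact permutation test of 3 libraries against 3 allows. Background, taken as the density of reads elsewhere in the genome times the width of the regions, would give 13.8% ± 5.54 of the region reads in MEF and 39.9% ± 5.56 in Stage 2 (SD, n = 3 each). This expected background is printed beside some of the levels below. Low levels given without it can lie near background as well. Of the replicate pairs, MEF replicate 1 stood apart from MEF replicates 2 and 3, with a chi-square per degree of freedom of 2.07 and 2.14 against 1.20 for replicates 2 and 3. The corresponding values in Stage 2 were 1.09, 1.20 and 1.03.

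Levels are given as CPM, the counts of a library scaled to a fixed total of reads in regions, with TMM normalisation, and differences as log2 fold changes of Stage 2 over MEF with their standard errors. A call means an adjusted p under 0.05 in edgeR's quasi-likelihood test. TMM, computed separately for regions, genes and starts, sets the typical feature to little or no change: the median log2 fold change was 0.03 over regions and -0.00067 over genes. When libraries were instead scaled to all their reads, the median over genes became -1.35, because Stage 2 libraries had fewer reads in regions. All rises and falls below are therefore changes relative to the typical gene or region. The share of called genes that were higher was 50.3% with TMM and 6.75% with whole-library scaling, and the share among regions was 50.1% and 23.5%. With the TMM factors of the regions, an alternative chosen after seeing the data, the median over genes was -0.24, and 4270 genes were called higher and 8201 lower, 34.2% higher.

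Most of the tested regulatory landscape differed between Stage 2 cells and MEF. Of 71069 regions tested, 58703 were called (82.6%), 29429 higher (41.4%) and 29274 lower (41.2%) in Stage 2. Among the regions that rose, the median log2 fold change was 2.74, and 5397 rose over 16-fold. Falls were smaller, with a median of -2.14 and 769 regions over 16-fold. The low side of these changes often lay close to background: 44.7% of the regions that rose were at or below the expected background in MEF, and 55.9% of those that fell were at or below it in Stage 2. Depth in regions differed as well, and after all libraries had been thinned to the depth of the shallowest one 22710 regions were called higher and 16697 lower.

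Change among tested regions was more frequent away from gene starts. Within 1 kb of a start, 24.3% of 14805 tested regions rose, 37.1% fell and 38.6% did not pass the test, and 9.79% changed over 4-fold. Beyond 50 kb from any start, 42.8% of 21511 regions rose, 49.5% fell, 7.71% did not pass, and 70.1% changed over 4-fold. The filter on low counts kept 14805 of 16006 regions within 1 kb of a start but 21511 of 41950 beyond 50 kb. A region with few reads could pass this filter through the group where it was high. The part of the filter in these shares was not tested. Regions that did not pass lay at a median of 1906 bp from a start, against 21331 bp for those that rose and 26955 bp for those that fell. The share of region reads at gene starts was 32.2% ± 0.689 in MEF and 35.2% ± 0.999 in Stage 2 (SD, n = 3 each), with no overlap between the groups (two-sided exact permutation test, p = 0.1, the smallest possible).

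The interval lists that the authors deposited for each stage gave the same picture, but they were made from these libraries and are not independent evidence. The filter on low counts, which used all 12 libraries, kept 17179 of 19102 regions that only the Stage 2 list held but 29135 of 68072 that only the MEF list held, so most regions of the latter kind were not tested. Of the former 99.1% rose and 0 fell, and of the latter 81.9% fell and 3.18% rose. The regions on both lists, 59.9% of which lay within 1 kb of a start, were divided: of 17807 tested, 28.6% rose, 30.5% fell and 40.9% did not pass. A further 6948 tested regions were on neither list, and 91.8% of these rose.

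**Figure D1:**
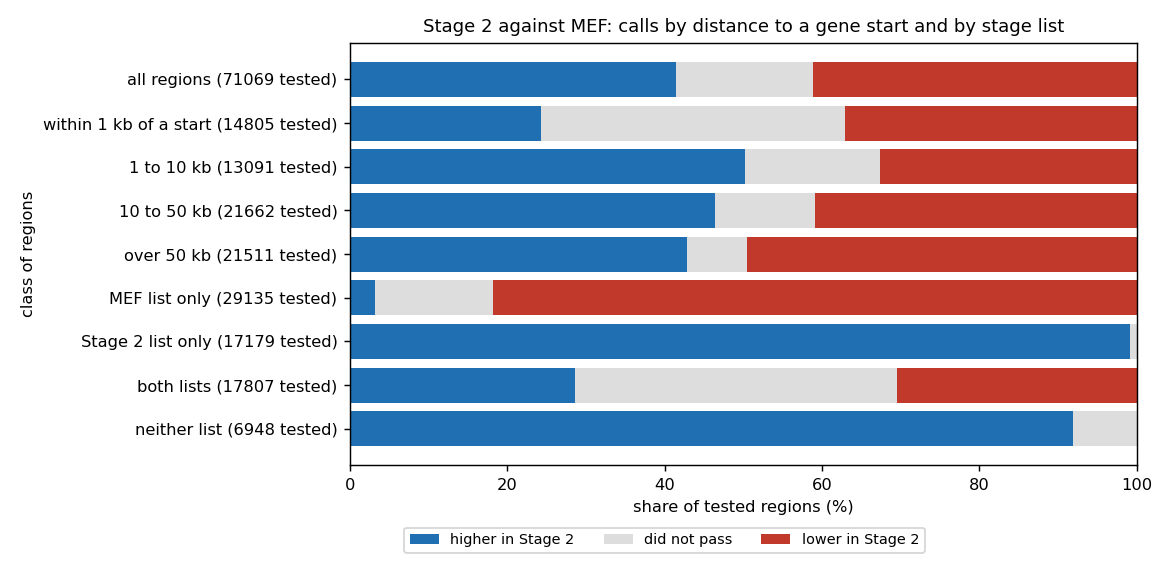
Share of tested regions (x axis, %) that were higher in Stage 2, lower in Stage 2 or did not pass the test, for classes of regions by distance to a gene start and by stage list (y axis). Regions within 1 kb of a start have the largest share of regions that did not pass among the distance classes, 38.6%, and regions beyond 50 kb the smallest, 7.71%.

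Each protein-coding gene was given the sum of reads in all regions inside it or up to 10 kb away, which measures open chromatin around the gene and not its expression. In cell populations, fewer cells with an open region and a lower accessibility in each cell cannot be told apart. Of 17507 genes tested, 11749 were called (67.1%), 5909 higher (33.8%) and 5840 lower (33.4%). At gene starts, counted within 1 kb of a start, 7574 of 13857 were called (54.7%), 3892 higher (28.1%) and 3682 lower (26.6%). Counts for gene lists have to be read against these shares. A region near several genes counted for each of them, and all regions of Pou5f1, Fosl1, Alx1, Jund, Tead2, Tead3, Cldn6, Cldn7, Tgfb3, Majin, T and Tie1 were shared with a neighbour. The libraries of Stage 2 and MEF did not overlap at 82.8% of tested regions and 69.4% of tested genes.

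The naive and core pluripotency genes opened almost as a block. Of 33 members 32 rose and none fell, with a median log2 fold change of 2.15 (0.83 with whole-library scaling), against 33.8% of all genes that rose. In all 32 the Stage 2 level was above 2 times the expected background. The summed level of the list ran from 986 to 1008 CPM in the MEF libraries, with 263 CPM of expected background, and from 3520.1 to 3842 CPM in Stage 2, with 701 CPM of expected background. At their starts 27 of 32 tested members rose and 2 fell, with a median of 3.36. The only member that did not pass near the gene was Tbx3, a T-box factor, at 80.4 ± 5.97 CPM in MEF and 77.0 ± 2.55 in Stage 2 (SD, n = 3 each). Its start fell, from 72.9 ± 8.09 to 38.3 ± 2.57 CPM (-0.95 ± 0.13), and the other start that fell was that of Klf2, a Krüppel-like factor (-0.45 ± 0.14).

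Zfp42 encodes Rex1, a zinc-finger protein used as a marker of naive pluripotency. Near the gene (chr8:43295067-43307009, mm10) the MEF libraries gave 1.55, 1.56 and 5.78 CPM and the Stage 2 libraries 70.2, 78.7 and 63.1 CPM. The 3 MEF values lay around the expected background of 3.59 CPM, and all Stage 2 values were far above them and above their own background of 9.54 CPM. The log2 fold change was 4.83 ± 0.23 (edgeR adjusted p = 1.5e-25). Nr0b1, which encodes the orphan receptor Dax1, had the next largest rise, from 1.52 ± 1.20 to 35.5 ± 5.51 CPM (SD, n = 3 each; log2 fold change 4.77 ± 0.28). Dppa5a, an RNA-binding protein of pluripotent cells, had 5.67, 3.52 and 15.2 CPM in MEF and 153, 159.8 and 147 CPM in Stage 2 (log2 fold change 4.46 ± 0.21, edgeR adjusted p = 2.14e-14). At both Zfp42 and Dppa5a MEF replicate 3, the library with the fewest reads in regions, was the highest of the MEF libraries.

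The values at Pou5f1 check the sort, which selected cells by a reporter of this gene, and are no finding. Near Pou5f1 the MEF libraries gave 46.2, 47.5 and 41.5 CPM and the Stage 2 libraries 91.5, 117 and 111 CPM. The groups did not overlap, yet the log2 fold change of 1.22 ± 0.11 (edgeR adjusted p = 3.6e-16) was well under that at the start of the gene. There the values were 2.93, 2.96 and 4.50 CPM in MEF and 32.5, 33.8 and 35.8 CPM in Stage 2, a log2 fold change of 3.35 ± 0.23. The smaller value near the gene goes with a region that was open in both groups, 8.17 kb from the start at chr17:35516601-35517350 and linked to 3 genes. That region had 39.8, 42.6 and 33.7 CPM in MEF and 24.2, 33.0 and 30.3 CPM in Stage 2. By contrast the region 1.98 kb before the start (chr17:35503701-35504400) had 0.990, 1.59 and 2.01 CPM in MEF and 22.6, 32.4 and 32.3 CPM in Stage 2, a log2 fold change of 4.28 ± 0.30. With whole-library scaling the value near Pou5f1 became -0.13 and that at its start remained a rise.

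Nanog and Lin28a showed the same contrast between the start and its surroundings. At the start of Nanog, a homeobox factor of the pluripotency core, the MEF libraries had 1.38, 1.18 and 1.12 CPM and the Stage 2 libraries 33.1, 30.1 and 27.9 CPM (log2 fold change 4.54 ± 0.28, edgeR adjusted p = 2.25e-30). Over the whole gene with its flanks the rise was 1.39 ± 0.11, from 57.6, 54.6 and 44.4 CPM to 165, 128 and 123 CPM, since a region 4.69 kb before the start was already at 58.4, 55.5 and 41.4 CPM in MEF. Lin28a, an RNA-binding protein that blocks the maturation of let-7 miRNAs, rose by 4.27 ± 0.38 at its start and by 0.77 ± 0.15 near the gene, and the latter value was -0.56 with whole-library scaling.

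Sox2 opened at every tested region. Its 4 regions rose by between 1.23 and 3.35 on the log2 scale, and the gene value went from 14.6, 12.7 and 19.14 CPM in MEF to 71.3, 55.9 and 72.2 CPM in Stage 2 (log2 fold change 2.15 ± 0.16, edgeR adjusted p = 1.04e-20). Esrrb, an orphan nuclear receptor of the naive network, had the opposite layout from Nanog. Its gene value rose from 59.1, 69.6 and 78.7 CPM to 298, 318 and 302 CPM (log2 fold change 2.17 ± 0.09, edgeR adjusted p = 1.35e-33). At its start, however, the MEF libraries had 5.69, 5.33 and 6.37 CPM and the Stage 2 libraries 7.71, 7.99 and 5.73 CPM, and the groups overlapped (0.34 ± 0.32, adjusted p = 0.374). Of 16 tested regions 13 rose, 11 of them at least 33.5 kb from the nearest start of the gene. The strongest, chr12:86501401-86502350, lies inside the gene 80.2 kb from the start and went from 0.990, 1.36 and 2.01 CPM to 55.7, 62.4 and 54.5 CPM (log2 fold change 5.36 ± 0.25).

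Klf4 and Myc, the other 2 classical reprogramming factors, were open in both cell types. Near Klf4 the MEF libraries had 61.7, 72.4 and 70.4 CPM and the Stage 2 libraries 85.4, 82.4 and 94.0 CPM, a rise of 0.36 ± 0.11 on the log2 scale (edgeR adjusted p = 0.00246). Myc had 92.0, 78.4 and 74.4 CPM against 104, 102 and 105 CPM (0.33 ± 0.10, edgeR adjusted p = 0.00295). Neither start passed the test. Both gains were lost on the scale of the region test (0.13 and 0.098) and became falls with whole-library scaling (-0.97 and -1.03), so their direction depends on the scaling.

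Promoter sequences show what kind of DNA opened at the starts of these genes. The 4 starts of the selected genes that rose most and had a counted region over the RefSeq promoter window (250 bases before to 50 bases after the start, assembly GRCm38.p6, which is mm10) were those of Zfp42 (chr8:43306960-43307259, minus strand), Otx2 (chr14:48662685-48662984, minus strand), Nanog (chr6:122707239-122707538, plus strand) and Lin28a (chr4:134018767-134019066, minus strand). Each is written 5′ to 3′ in the direction of the gene, with capitals for the E-box bound by Zeb and Snail proteins, CACCTG or its complement CAGGTG. Zfp42 and Nanog hold 1 such E-box each, Otx2 and Lin28a none.
Zfp42: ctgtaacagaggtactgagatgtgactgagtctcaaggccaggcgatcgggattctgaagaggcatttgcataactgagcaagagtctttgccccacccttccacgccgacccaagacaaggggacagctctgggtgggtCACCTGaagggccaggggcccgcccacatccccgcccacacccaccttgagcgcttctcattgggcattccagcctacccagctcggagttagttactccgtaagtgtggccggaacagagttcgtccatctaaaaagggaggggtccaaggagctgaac
Otx2: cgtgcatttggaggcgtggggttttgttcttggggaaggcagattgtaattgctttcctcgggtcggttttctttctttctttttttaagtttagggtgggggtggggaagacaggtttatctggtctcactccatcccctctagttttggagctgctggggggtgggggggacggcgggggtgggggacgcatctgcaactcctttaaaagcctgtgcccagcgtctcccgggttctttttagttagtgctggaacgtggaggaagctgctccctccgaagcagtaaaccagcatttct
Nanog: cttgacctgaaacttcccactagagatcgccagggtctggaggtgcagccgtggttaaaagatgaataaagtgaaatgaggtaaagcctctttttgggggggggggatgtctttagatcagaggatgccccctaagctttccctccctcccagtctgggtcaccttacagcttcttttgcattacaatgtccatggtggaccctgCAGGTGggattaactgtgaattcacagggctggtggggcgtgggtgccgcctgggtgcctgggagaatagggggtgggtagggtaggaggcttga
Lin28a: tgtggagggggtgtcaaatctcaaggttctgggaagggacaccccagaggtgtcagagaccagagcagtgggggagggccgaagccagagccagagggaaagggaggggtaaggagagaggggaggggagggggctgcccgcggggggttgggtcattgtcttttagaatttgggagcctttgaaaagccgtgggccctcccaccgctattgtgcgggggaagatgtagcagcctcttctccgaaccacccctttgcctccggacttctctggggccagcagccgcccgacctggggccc

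The regions over these 4 windows had between 0 and 2.81 CPM in the MEF libraries and reached between 16.5 and 52.2 CPM in the highest Stage 2 library of each, without overlap at any of them. Upstream of its start Zfp42 also holds the octamer bound by Oct4 and other POU factors (its letters are ATTTGCAT in this strand, 186 to 179 bases before the start), which 1.74% of all 32817 RefSeq promoter windows hold on either strand. A match describes the letters and does not show binding.

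Genes of the primed epiblast, the state after implantation, also opened. Of 18 tested members 14 rose and 2 fell, with a median log2 fold change of 1.16, which was -0.16 with whole-library scaling. Otx2, a homeobox factor of the epiblast and forebrain, had 1.89, 2.35 and 2.17 CPM in MEF and 71.9, 52.2 and 61.7 CPM in Stage 2. The MEF libraries were all below the expected background of 3.26 CPM, the Stage 2 libraries all above theirs of 8.68 CPM, and the log2 fold change was 4.84 ± 0.23 (edgeR adjusted p = 1.08e-30). Sox3, a relative of Sox2, rose from 0.869 ± 0.445 to 11.9 ± 3.80 CPM (SD, n = 3 each; 3.65 ± 0.43). The de novo DNA methyltransferase gene Dnmt3b rose only slightly, from 29.0 ± 3.07 to 39.3 ± 3.01 CPM (0.45 ± 0.15), and fell with whole-library scaling (-0.88). Car12, a carbonic anhydrase, and Pou3f1, a POU factor, were the 2 members that fell, by 1.55 and 0.35 on the log2 scale.

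**Figure D2:**
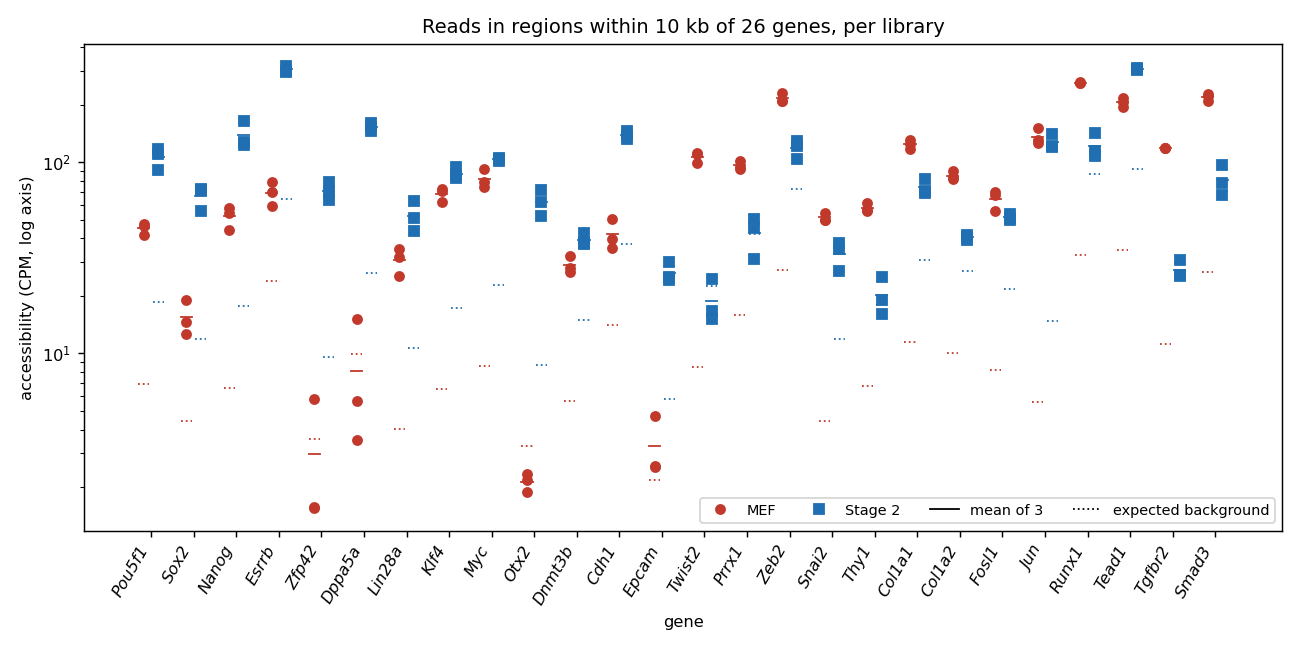
Accessibility near 26 genes in CPM (y axis, log scale) for each MEF and Stage 2 library, with the mean of 3 libraries as a bar and the expected background as a dotted line. For Zfp42 the MEF libraries lie at 1.55, 1.56 and 5.78 CPM and the Stage 2 libraries at 70.2, 78.7 and 63.1 CPM, while for Jun the 2 groups overlap.

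Epithelial genes opened as well, above all at their starts. Of 36 members 27 rose and 4 fell near the gene, with a median log2 fold change of 1.13, which was -0.20 with whole-library scaling. At the starts 26 of 29 tested members rose and 3 fell, with a median of 2.20, against 28.1% of all starts that rose. The summed level of the list was between 1433 and 1524 CPM in the MEF libraries (236 CPM of expected background) and between 2354 and 2456 CPM in the Stage 2 libraries (627 CPM of expected background). The members that rose cover tight junctions (Cldn3, Cldn4, Cldn7, Marveld2, Crb3), desmosomes (Dsp, Pkp3), splicing regulators of epithelial isoforms (Esrp1, Esrp2) and transcription factors (Grhl2, Grhl3, Elf3, Ehf, Ovol2).

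Cdh1 encodes E-cadherin, the adhesion molecule whose gain defines the mesenchymal-to-epithelial transition. Its gene value was 35.8, 39.9 and 50.5 CPM in MEF and 133, 145 and 138 CPM in Stage 2, well apart, with a log2 fold change of 1.76 ± 0.11 (edgeR adjusted p = 6.99e-24). At its start the rise was 3.33 ± 0.24, and 9 of its 11 tested regions rose while 1 fell. Epcam, an adhesion molecule of epithelia and of pluripotent cells, had 2.58, 2.54 and 4.69 CPM in MEF and 24.1, 30.1 and 25.2 CPM in Stage 2 (3.11 ± 0.26, edgeR adjusted p = 6.61e-18). The claudin gene Cldn7 had the largest rise of the list, from 0.898 ± 0.528 to 12.9 ± 4.60 CPM, followed by Ehf, an ETS factor of epithelia, from 2.98 ± 1.84 to 35.3 ± 1.97 CPM (SD, n = 3 each). Both had MEF levels at or below their expected backgrounds of 0.979 and 3.15 CPM.

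4 epithelial genes went the other way near the gene. Krt19, a keratin of simple epithelia, fell by 1.82 ± 0.20 on the log2 scale, and Cdh3 (P-cadherin), Grhl1 (a grainyhead factor) and Cldn6 (a claudin) fell by between 0.43 and 0.50. Cldn6 and Cdh3 nevertheless rose at their starts, by 3.25 and 2.65 on the log2 scale.

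The promoters of Cldn7 (chr11:69965171-69965470, plus strand), Crb3 (chr17:57061951-57062250, plus strand) and Epcam (chr17:87635729-87636028, plus strand) are printed as epithelial promoters that opened and hold the E-box of the Zeb and Snail type. Cldn7 and Crb3 had the largest rises at the start among epithelial genes with this E-box in a promoter window over a counted region. Epcam was added by name. All 3 were chosen after their values were seen, so the contrast in their levels follows in part from the choice. Cldn7 holds 2 matches, Crb3 4 and Epcam 2, in capitals.
Cldn7: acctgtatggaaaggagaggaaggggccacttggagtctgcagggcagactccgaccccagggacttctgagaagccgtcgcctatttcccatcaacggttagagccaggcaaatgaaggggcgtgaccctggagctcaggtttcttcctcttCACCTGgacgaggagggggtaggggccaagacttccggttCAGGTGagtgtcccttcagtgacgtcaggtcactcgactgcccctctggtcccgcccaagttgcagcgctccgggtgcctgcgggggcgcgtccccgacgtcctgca
Crb3: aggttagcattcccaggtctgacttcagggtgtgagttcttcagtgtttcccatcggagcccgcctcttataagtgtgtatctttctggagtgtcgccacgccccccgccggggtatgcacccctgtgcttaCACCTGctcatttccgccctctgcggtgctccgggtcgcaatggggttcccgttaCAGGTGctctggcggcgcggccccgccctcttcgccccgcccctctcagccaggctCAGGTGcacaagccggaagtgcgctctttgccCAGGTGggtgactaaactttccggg
Epcam: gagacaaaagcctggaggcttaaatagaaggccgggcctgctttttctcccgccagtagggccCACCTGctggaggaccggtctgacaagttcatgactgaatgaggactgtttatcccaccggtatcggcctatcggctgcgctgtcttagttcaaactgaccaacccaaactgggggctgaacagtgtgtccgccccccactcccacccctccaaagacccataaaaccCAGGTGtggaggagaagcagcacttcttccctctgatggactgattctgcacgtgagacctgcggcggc

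The region over the Crb3 window, which encodes a protein of the apical polarity complex, had 1.19, 1.36 and 2.81 CPM in MEF and 24.2, 17.4 and 14.1 CPM in Stage 2. Over the Cldn7 window the values were 0.990, 0.453 and 1.61 CPM against 9.92, 10.2 and 17.5 CPM, and over the Epcam window 0.594, 0.680 and 2.01 CPM against 9.37, 14.4 and 14.1 CPM. No MEF library passed 2.81 CPM at any of the 3 promoters, and no Stage 2 library was under 9.37 CPM.

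This E-box was more frequent in promoters that opened. Motifs were searched on both strands. Among promoter windows over a counted region, CACCTG or CAGGTG was present in 28.7% of those whose start rose (912 of 3174), in 15.9% of those that did not pass (912 of 5740) and in 11.03% of those whose start fell (374 of 3391), beside 20.2% of all 32817 windows. The share increased with the size of the change, from 11.3% of 524 windows with a fall of over 1 on the log2 scale to 39.4% of 236 windows with a rise of over 3. Other E-boxes differed less between starts that rose and starts that fell: the Twist type, CATCTG, was present in 11.3% and 10.7%, the MyoD type, CAGCTG, in 16.0% and 14.2%, and the Myc type, CACGTG, in 9.61% and 9.76%.

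GC content did not separate the 3 classes, whose median was 62% each, although the windows that rose by over 3 had a median of 56.7%. The order of the classes was the same within windows of low, middle and high GC content, where 24.8%, 31.3% and 30.5% of the windows that rose and 9.19%, 12.6% and 11.3% of those that fell held the motif. The classes did differ in CpG dinucleotides per window, with a median of 19 where the start rose, 22 where it did not pass and 23 where it fell. By size of change this median was 14 with a fall of over 1, 23 with a fall of up to 1 and 10 with a rise of over 3. Depth differed too, with a median of 87.5 reads in the region of windows that rose by over 3 and 551 reads in that of windows with a fall of up to 1. The parts of CpG content and depth were not tested. By list, the motif was present in 14 of 15 epithelial genes whose start rose and whose window lay over a region, in 9 of 17 pluripotency genes (among them Nanog, Zfp42, Fgf4 and Tdgf1), in 5 of 19 fibroblast genes whose start fell, and in 5 of 52 housekeeping genes. The other lists with 6 or more such genes whose start rose held it less often. It was present in 4 of 10 such germline genes, 1 of 10 of neural ectoderm and 1 of 8 of mesoderm and endoderm. In the Wnt list it was in 1 of 6, and in DNA methylation and chromatin enzymes in 0 of 7. Lists with fewer such genes varied, from 0 of 4 in LIF, BMP and FGF signalling to 2 of 4 in senescence and the p53 barrier and 1 of 1 in the AP-1 list. The pattern was noticed in these data, the shares are a description, and the matches do not show binding by any factor.

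**Figure D3:**
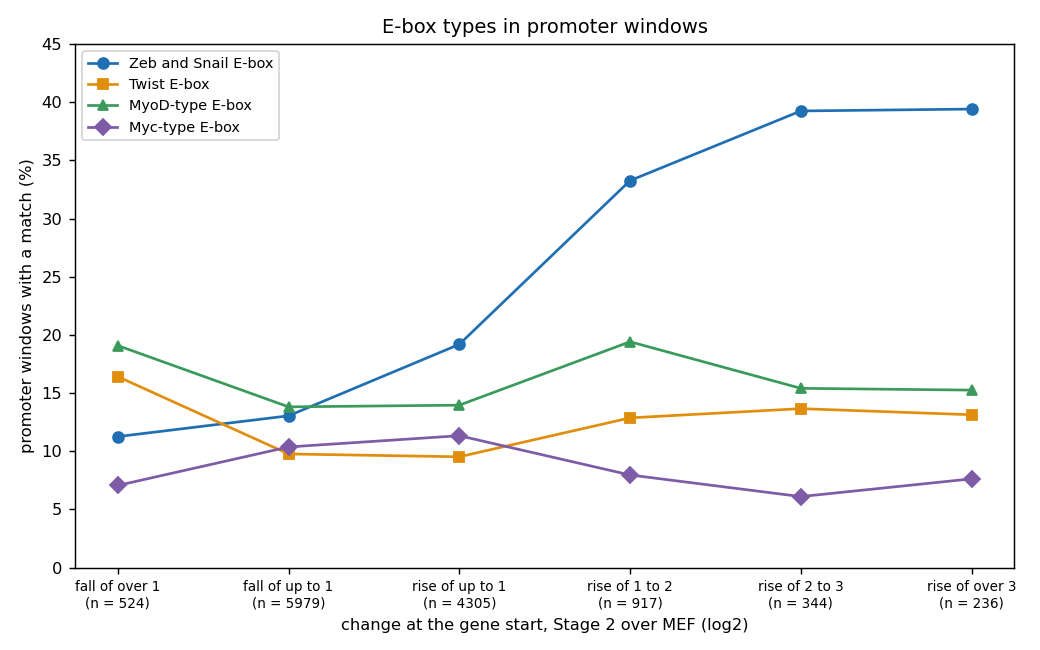
Share of promoter windows with a match to 4 types of E-box (y axis, %) by class of change at the gene start (x axis, log2 fold change of Stage 2 over MEF, with the number of windows). The Zeb and Snail type runs from 11.3% in the class with the largest falls to 39.4% in the class with the largest rises, and the other 3 types stay between 6.10% and 19.4%.

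Matrix and surface genes of fibroblasts closed nearly throughout. Of 41 tested members 39 fell and 1 rose, against 33.4% of all genes that fell, with a median log2 fold change of -1.13 (-2.50 with whole-library scaling). The summed level was between 4306 and 4670 CPM in the MEF libraries (473 CPM of expected background) and between 2052 and 2231 CPM in the Stage 2 libraries (1257 CPM of expected background). In 8 of the members that fell, the Stage 2 level was at or below the expected background. The falls included collagens (Col1a1, Col3a1, Col6a3), contractile genes (Acta2, Tagln, Cnn1), the crosslinking enzyme Lox and the fibrillin Fbn1. Fn1, the gene of fibronectin, rose, by 0.56 ± 0.10 on the log2 scale.

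Thy1, a surface protein used to mark fibroblasts that have not begun to reprogram, had 56.0, 55.3 and 61.0 CPM in MEF and 19.09, 25.2 and 16.1 CPM in Stage 2. The Stage 2 values lay around the expected background of 17.9 CPM, and the log2 fold change was -1.49 ± 0.16 (edgeR adjusted p = 6.69e-13). Col1a2, a chain of type I collagen, had 89.7, 81.7 and 83.8 CPM against 41.6, 39.3 and 40.7 CPM (-1.07 ± 0.12, edgeR adjusted p = 4.6e-12). Its partner Col1a1 fell by 0.76 ± 0.10 near the gene but did not pass at its start, where it had 29.1, 34.2 and 36.7 CPM against 27.0, 26.4 and 26.5 CPM (-0.30 ± 0.16, adjusted p = 0.105). The deepest falls of the list were those of Lum, the proteoglycan lumican (-2.73 ± 0.36), and Bgn, the proteoglycan biglycan (-2.38 ± 0.29). Pdgfra, a receptor of mesenchymal cells that is also on the list used to check the MEF label, was at 41.9 ± 4.87 CPM in MEF and 50.4 ± 3.16 in Stage 2 (SD, n = 3 each) and did not pass.

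Mesenchymal transcription factors were divided. Of 29 tested members 15 fell and 6 rose, against 33.4% and 33.8% of all genes. The median log2 fold change was -0.33 (-1.65 with whole-library scaling). At their starts 5 fell and 7 rose of 28, against 26.6% and 28.1% of all starts. Twist2, a basic helix-loop-helix factor of mesenchyme, had the largest fall, from 99.5, 109.9 and 112 CPM to 15.2, 16.6 and 24.5 CPM. The Stage 2 values were around the expected background of 22.6 CPM, and the log2 fold change was -2.53 ± 0.15 (edgeR adjusted p = 3.02e-25). All 4 tested regions of Twist2 fell. Prrx1, a homeobox factor of limb and connective tissue, fell by 1.19 ± 0.13 near the gene, from 102, 92.3 and 94.96 CPM to 46.0, 31.3 and 50.5 CPM, while its start had 10.9, 6.12 and 10.5 CPM against 11.6, 6.15 and 12.2 CPM and did not pass.

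Among the repressors of epithelial genes, Snai2 (Slug) fell by 0.63 ± 0.15 on the log2 scale, Zeb1 by 0.66 ± 0.12 and Zeb2 by 0.88 ± 0.09, whereas Snai1 had 68.7 ± 6.79 CPM in MEF and 61.4 ± 5.17 in Stage 2 (SD, n = 3 each) and did not pass. The start of Zeb1 rose by 1.02 on the log2 scale, and that of Zeb2 did not pass (0.03). Counted only within 1 kb of either end of the gene, Zeb2 rose by 1.26, so its direction depends on the regions counted. The members that rose near the gene were Alx1, Alx4, Foxd1, Osr2, Msx2 and Tbx18, factors of craniofacial and limb mesenchyme or of body wall, of which Alx1 rose most, from 4.95 ± 1.72 to 21.5 ± 3.48 CPM (2.21 ± 0.26).

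The promoters of the 4 selected genes whose starts fell most, among those with a counted region over a RefSeq promoter window, are given for comparison with those that opened. Thy1, whose start fell by 0.66 on the log2 scale, is named only. They are those of Col1a2 (chr6:4505368-4505667, plus strand), Tgfbr2 (chr9:116175314-116175613, minus strand), Twist2 (chr1:91801211-91801510, plus strand) and Smad3 (chr9:63757945-63758244, minus strand). None holds an E-box of the Zeb and Snail type, so no letter is in capitals. The windows of Col1a2, Tgfbr2, Twist2 and Smad3 hold 13, 15, 25 and 25 CpG dinucleotides, and those of Zfp42, Otx2, Nanog and Lin28a 11, 11, 4 and 10. The windows of Cldn7 and Crb3, which also rose, hold 17 and 20, and over all windows with a counted region the median was 19 where the start rose and 23 where it fell.
Col1a2: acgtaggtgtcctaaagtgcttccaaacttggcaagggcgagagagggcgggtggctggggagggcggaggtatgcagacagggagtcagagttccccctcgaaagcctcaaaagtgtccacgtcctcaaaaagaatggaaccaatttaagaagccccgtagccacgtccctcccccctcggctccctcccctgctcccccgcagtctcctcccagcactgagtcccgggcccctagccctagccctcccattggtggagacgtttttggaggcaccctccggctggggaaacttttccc
Tgfbr2: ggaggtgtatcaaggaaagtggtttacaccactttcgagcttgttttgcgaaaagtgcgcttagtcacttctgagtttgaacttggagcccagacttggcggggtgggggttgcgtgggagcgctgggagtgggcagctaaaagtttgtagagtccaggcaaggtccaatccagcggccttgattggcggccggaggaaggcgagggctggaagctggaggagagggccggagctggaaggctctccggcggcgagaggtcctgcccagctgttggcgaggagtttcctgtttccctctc
Twist2: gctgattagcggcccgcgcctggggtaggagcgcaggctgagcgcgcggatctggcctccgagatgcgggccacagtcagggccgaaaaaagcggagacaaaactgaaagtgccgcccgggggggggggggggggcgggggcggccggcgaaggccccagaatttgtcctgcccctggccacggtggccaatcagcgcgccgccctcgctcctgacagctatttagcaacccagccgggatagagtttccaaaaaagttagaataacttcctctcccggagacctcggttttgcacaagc
Smad3: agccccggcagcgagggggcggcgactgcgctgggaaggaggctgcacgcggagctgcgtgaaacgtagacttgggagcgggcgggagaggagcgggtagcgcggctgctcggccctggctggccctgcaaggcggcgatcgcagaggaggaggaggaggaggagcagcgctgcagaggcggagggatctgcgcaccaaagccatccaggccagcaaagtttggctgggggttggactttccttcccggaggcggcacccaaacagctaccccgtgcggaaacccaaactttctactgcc

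At these 4 windows the regions were open in every MEF library, at between 18.9 and 40.2 CPM. Col1a2 fell furthest, from 40.2, 38.3 and 40.2 CPM to 5.51, 9.60 and 10.1 CPM. Smad3 fell least, from 25.9, 31.5 and 27.7 CPM to 12.1, 19.8 and 14.8 CPM.

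The TGF-beta pathway, which maintains the mesenchymal state, lost accessibility from ligand to target. Of 25 genes 23 fell and none rose, with a median log2 fold change of -0.71 (-2.05 with whole-library scaling). Among the ligands, Tgfb1, Tgfb2 and Tgfb3 fell by 1.08, 0.63 and 0.74. Of the receptors, Tgfbr2 fell from 118, 119 and 118 CPM to 25.3, 25.8 and 30.9 CPM, the Stage 2 values lying around the background of 29.8 CPM (-2.13 ± 0.14, edgeR adjusted p = 7.05e-22), and Tgfbr1 fell by 0.71 ± 0.12.

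Among the transducers, Smad3 fell from 209, 227 and 221 CPM to 67.4, 78.0 and 96.8 CPM (-1.45 ± 0.10, edgeR adjusted p = 1.04e-20), further than Smad2 and Smad4, which fell by 0.48 ± 0.13 and 0.63 ± 0.12; the differences between these genes were not tested. The inhibitors Smad6 and Smad7 fell by 0.27 and 0.23. Of the targets, Tgfbi, a matrix protein, fell by 2.06 ± 0.15. The type I receptor Acvr1b and the corepressor Tgif1 did not pass. Starts were less uniform: 14 of 24 fell and 3 rose, among these Inhba, a subunit of activin, by 0.53 on the log2 scale.

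AP-1 factors bind the enhancers of fibroblasts. Near their own genes 7 of 18 tested members fell and 2 rose, and 9 did not pass, with a median log2 fold change of -0.07 (-1.41 with whole-library scaling and 0.03 with housekeeping scaling). Jun had 152, 126 and 131 CPM in MEF and 140.4, 122 and 119.9 CPM in Stage 2; the groups overlapped (-0.09 ± 0.09, edgeR adjusted p = 0.375). Fosl1, a Fos relative tied to the mesenchymal state, went from 55.5, 67.3 and 69.7 CPM to 49.98, 53.5 and 51.2 CPM (-0.30 ± 0.12, edgeR adjusted p = 0.026), a fall that did not pass without MEF replicate 2 (-0.26), MEF replicate 3 (-0.25), Stage 2 replicate 1 (-0.28) or Stage 2 replicate 3 (-0.30). Clear falls were those of Batf3, from 9.76 ± 2.81 to 2.14 ± 2.15 CPM (-2.13 ± 0.45), and Batf, from 27.2 ± 1.75 to 9.19 ± 1.67 CPM (SD, n = 3 each; -1.56 ± 0.22), 2 AP-1 members best known from lymphocytes. Fosl2 and Bach2 fell by 1.05 and 1.37, whereas Jund rose by 0.46.

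Other transcription factors of somatic cells mostly fell, 18 of 31 against 6 that rose, with a median of -0.32 (-1.68 with whole-library scaling). Of all genes 33.4% fell and 33.8% rose. Near the gene Ets1 fell most of the list, by 1.38, followed by Runx2, by 1.23, and Nfia, by 1.15. Runx1 had 260.1, 262 and 261 CPM in MEF and 107, 115 and 142 CPM in Stage 2 (-1.11 ± 0.09, edgeR adjusted p = 3.1e-18), and its start fell by 0.42. Ets2 fell by 0.31 near the gene, and its start (0.05) did not pass. At the starts of the list 3 of 29 rose and 8 fell, against 28.1% and 26.6% of all starts. Among those that fell were Runx2 by 1.72, Runx3 by 1.66, Cebpa by 1.07 and Ets1 by 0.86. The TEAD genes, partners of Yap, were divided: Tead2 rose most of the list, from 20.8 ± 0.953 to 75.3 ± 10.5 CPM (SD, n = 3 each; 1.85 ± 0.14), and Tead1 and Tead4 rose by 0.58 and 1.00, while Tead3 fell by 0.81. Tead1 fell with whole-library scaling (-0.75).

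**Figure D4:**
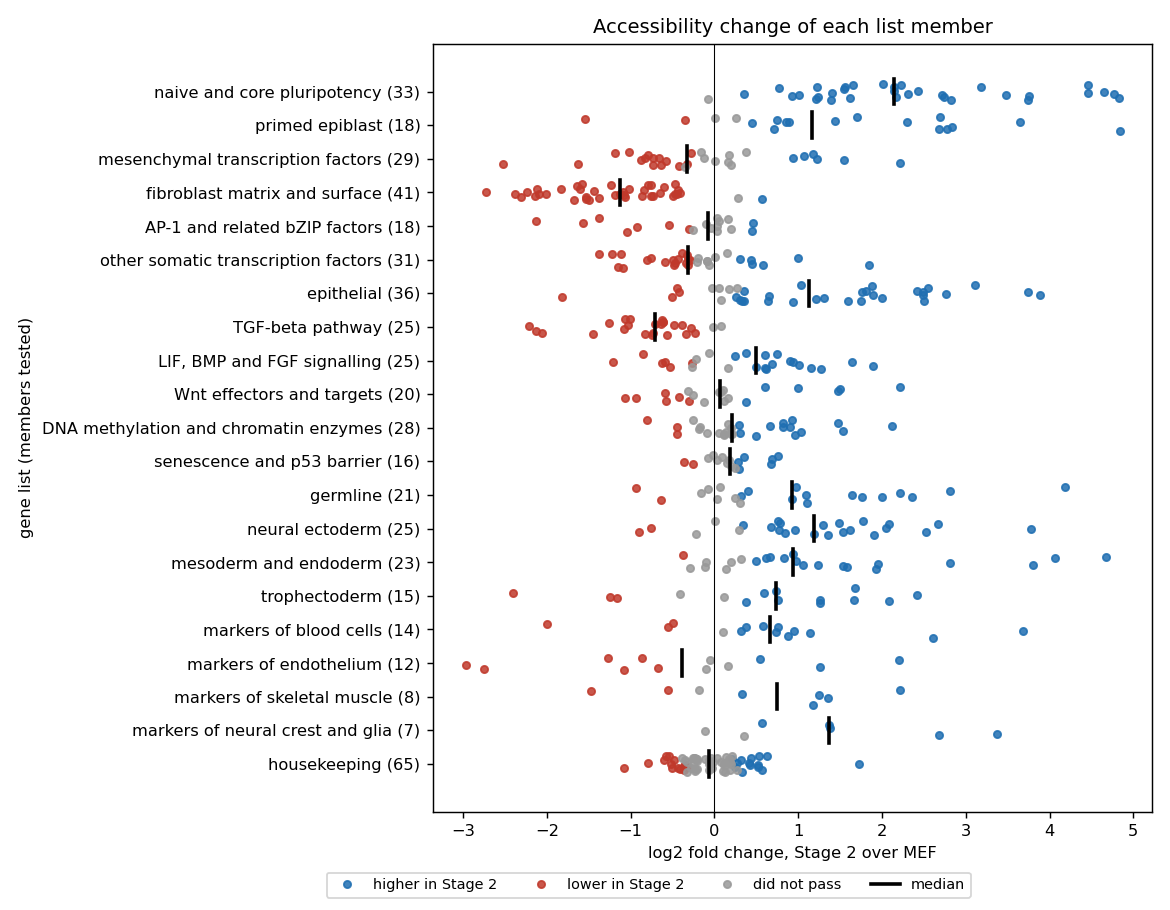
Log2 fold change of Stage 2 over MEF (x axis) for each tested member of the gene lists (y axis, with the number tested), with points for genes that were higher, lower or did not pass and a bar at the median. The pluripotency list has its median at 2.15 and the fibroblast matrix list at -1.13 with TMM; with whole-library scaling every median is lower, and that of the epithelial list changes sign from 1.13 to -0.20.

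Signalling genes moved in both directions. In the LIF, BMP and FGF list, 15 of 25 members rose and 6 fell, against 33.8% and 33.4% of all genes. The median log2 fold change was 0.50, and -0.82 with whole-library scaling. At the starts of the list 8 of 24 rose and 6 fell, with a median of 0.16, near the 28.1% and 26.6% of all starts. Bmp4, a ligand that supports naive pluripotency together with LIF, rose from 12.5 ± 2.60 to 47.5 ± 7.28 CPM and Kit, the receptor of stem cell factor, from 20.7 ± 5.46 to 61.7 ± 0.936 CPM (SD, n = 3 each; log2 fold changes 1.89 ± 0.17 and 1.64 ± 0.15). Near the gene both receptor subunits of LIF rose, Lifr by 1.15 and Il6st by 0.93, while their kinase Jak1 fell by 1.21 and the transducer Stat3 by 0.63. The starts of Lifr (0.23), Il6st (0.20) and Jak1 (0.03) did not pass, and that of Stat3 fell by 0.78. The FGF feedback genes Spry1, Spry2, Spry4, Dusp4 and Dusp6 rose, by between 0.37 and 1.01, and Fgf2 fell by 0.86. With whole-library scaling Bmp4 and Kit did not pass (0.56 and 0.32).

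In the Wnt list 6 of 20 members rose and 6 fell near the gene, close to the 33.8% and 33.4% of all genes. The median was 0.07 (-1.26 with whole-library scaling). At their starts 8 of 17 rose and 2 fell, with a median of 0.18, against 28.1% and 26.6% of all starts. Cdx1 rose most there, by 3.84, and Ctnnb1 and Fzd2 fell by 0.76 and 0.95. Near the gene Lef1, a DNA-binding effector of the pathway, rose from 29.3 ± 2.83 to 135 ± 9.76 CPM (SD, n = 3 each; 2.22 ± 0.11), and its relative Tcf7l2 fell by 0.59. The start of Lef1 rose by 1.07, and that of Tcf7l2 did not pass (0.07). The secreted inhibitor Dkk1 rose by 1.50 ± 0.17, and the feedback gene Nkd1 fell by 1.07.

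Of 28 genes of DNA methylation and chromatin enzymes, 13 rose and 3 fell, against 33.8% and 33.4% of all genes. The median was 0.21 (-1.12 with whole-library scaling). At their starts 10 of 28 rose and 2 fell, with a median of 0.14, against 28.1% and 26.6% of all starts. Tet2, which oxidises 5-methylcytosine, rose from 58.1 ± 3.87 to 255 ± 21.2 CPM (SD, n = 3 each; 2.12 ± 0.09, edgeR adjusted p = 4.15e-32); counted only within 1 kb of either end of the gene its change was 0.17 and did not pass, so the rise came from regions inside the gene or further out. Cbx7, a Polycomb subunit of pluripotent cells, rose by 1.54 ± 0.10 and Dnmt3l, the cofactor of de novo methylation, by 1.47 ± 0.14. The Polycomb methyltransferase gene Ezh2 and the demethylase gene Kdm1a fell by 0.45 and 0.80 near the gene, while their starts did not pass (0.04 and 0.14). Among 16 genes of senescence and the p53 barrier, 6 rose and 2 fell (median 0.18, -1.16 with whole-library scaling). Of all genes 33.8% rose and 33.4% fell, so the part of this list that rose was near that of all genes. The largest changes were those of the cyclins Ccnd3 (0.76 ± 0.08) and Ccnd1 (0.69 ± 0.11), both of which fell with whole-library scaling (-0.58 and -0.66), and Cdkn2a, the Ink4a/Arf locus, had 59.9 ± 3.60 CPM in MEF and 67.1 ± 4.10 in Stage 2 (SD, n = 3 each) and did not pass. Its start rose, from 39.1 ± 3.78 to 56.8 ± 3.86 CPM (0.56 ± 0.13). Of the 16 starts of this list 5 rose and 3 fell, against 28.1% and 26.6% of all starts. Those of Bbc3 and Cdkn1a, both p53 targets, and of Trp53 itself rose by 1.04, 0.83 and 0.66. The starts of Ccne1, Ccnd2 and Mdm4 fell by 0.60, 0.65 and 0.66.

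Accessibility near developmental genes of other lineages increased too, where 33.8% of all genes rose and 33.4% fell. In neural ectoderm 20 of 25 members rose and 2 fell (median 1.18, -0.16 with whole-library scaling), in mesoderm and endoderm 16 of 23 rose and 1 fell (0.94, -0.41), in the trophectoderm list 10 of 15 rose and 3 fell (0.73, -0.62), and in the germline list 13 of 21 rose and 2 fell (0.92, -0.42). The largest rises were those of En2, a homeobox factor of the midbrain (0.942 ± 0.733 to 13.6 ± 4.30 CPM), T, the mesoderm factor Brachyury (0.365 ± 0.0239 to 10.6 ± 2.61 CPM), Sox17, the endoderm factor (4.53 ± 2.97 to 66.5 ± 1.92 CPM), and Tex19.1, a germline and placenta gene (0.724 ± 0.936 to 10.3 ± 2.05 CPM; SD, n = 3 each). Sox17 and Foxa2 are examples with several regions, and their rises of 4.07 ± 0.21 and 2.81 ± 0.17 brought them to Stage 2 levels above 4 times the expected background of 9.54 and 13.3 CPM. Summed over the neural list the level was 652 to 711 CPM in MEF (expected background 128) and 1306 to 1346 in Stage 2 (340). For mesoderm and endoderm it was 452 to 485 CPM (95.5) and 862 to 905 CPM (254). The trophectoderm list had 471 to 496 CPM (89.0) and 654 to 701 CPM (237), and the germline list 431 to 447 CPM (71.5) and 597 to 665 CPM (190). The part of the higher Stage 2 background in these rises was not tested. These lists were not compared with one another.

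Sox1 of the neural list rose by 2.67 ± 0.22, Majin, a meiotic telomere protein of the germline list, by 2.81 ± 0.33, and Esx1, a placental homeobox factor, by 2.41 ± 0.35. Plac1, a placental gene on chromosome X, was the largest fall of the trophectoderm list, from 78.5 ± 9.60 to 15.1 ± 2.32 CPM (SD, n = 3 each; -2.41 ± 0.16). At the starts of the germline list 10 of 11 tested members rose, with a median of 3.49, and the remaining one did not pass.

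Markers of cell types that unsorted fibroblast cultures or the sorted gate could also hold were examined in the same way. Their counts stand beside 33.8% of all genes that rose and 33.4% that fell. Of 14 tested blood markers 10 rose and 3 fell, of 12 endothelial markers 3 rose and 6 fell, of 8 muscle markers 5 rose and 2 fell, and of 7 neural crest and glia markers 5 rose and none fell. The summed level of the blood list was between 396 and 430.2 CPM in MEF and between 572 and 597 CPM in Stage 2, beside expected backgrounds of 68.6 and 183 CPM. That of the endothelial list was between 592 and 630.4 CPM in MEF and between 465 and 496 CPM in Stage 2, beside 95.6 and 254 CPM. For muscle the sums were 198 to 211 CPM in MEF and 212 to 237 CPM in Stage 2 (37.6 and 100.1 CPM of background), and for neural crest and glia 196 to 209.7 CPM and 365 to 395 CPM (34.7 and 92.3 CPM). The part of other cells in any of these values was not tested.

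Defining markers differed in their levels. Ptprc, which encodes CD45, rose from 22.6 ± 1.75 to 38.3 ± 4.00 CPM with expected backgrounds of 6.31 and 16.8 CPM, and Spi1, the factor PU.1, from 17.5 ± 1.85 to 31.6 ± 4.55 CPM (4.68 and 12.4 CPM). The endothelial genes Tie1 and Emcn fell to Stage 2 levels of 3.51 ± 1.45 and 5.53 ± 1.28 CPM, below their backgrounds of 4.63 and 8.97 CPM, and in MEF they were at 23.8 ± 3.14 and 44.2 ± 7.33 CPM (SD, n = 3 each). Cldn5 and Robo4, a tight junction protein and a guidance receptor of endothelium, rose by 2.20 and 1.26 on the log2 scale near the gene. At the endothelial starts 3 of 6 tested rose and none fell: Robo4 (3.06), Cldn5 (1.89) and Kdr, a VEGF receptor (1.05), while near the gene Kdr fell by 0.68. The largest changes of the other lists were rises of Cd48, a surface protein of leukocytes (3.68 ± 0.40), Ikzf1, a lymphoid zinc-finger factor (2.61 ± 0.17), Pax7, the satellite cell factor (2.21 ± 0.26), and Tfap2b and Foxd3, factors of neural crest (3.37 ± 0.20 and 2.68 ± 0.16), Foxd3 being also on the epiblast list. In muscle Acta1, skeletal actin, fell by 1.48 ± 0.21.

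Housekeeping genes served as a reference. Of 65 members 14 rose, 14 fell and 37 did not pass near the gene, with a median of -0.06. At their starts 7 of 64 rose and 20 fell, with a median of -0.23, so starts of broadly expressed genes were slightly lower than the typical start on the TMM scale. Scaled to the reads at regions of these genes, 62.6% of the called starts were higher, against 51.4% with TMM.

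Within a gene, regions often moved in opposite directions. Of 11044 genes with 2 or more called regions, 6925 (62.7%) had at least 1 region that rose and 1 that fell, 2057 had rises only and 2062 falls only. As 41.4% of all tested regions rose and 41.2% fell, mixed directions are frequent in any set of several regions. The share that these rates alone would give was not computed, so the counts describe the loci only. Among the 5758 genes that did not pass as a whole, 2805 (48.7%) had regions called in both directions. Of the 26 selected genes 16 did. With whole-library scaling this number was 11.

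At Klf4 a region 9.38 kb before the start (chr4:55541551-55542150) had 10.5, 12.9 and 14.1 CPM in MEF and 0, 3.00 and 2.02 CPM in Stage 2, a log2 fold change of -2.88 ± 0.43. On the other side, 12.7 kb after the start (chr4:55519501-55520100), the order was reversed, with 0.396, 2.04 and 1.20 CPM against 15.4, 13.2 and 16.2 CPM (3.60 ± 0.38). The start itself had 45.8, 53.9 and 43.8 CPM against 46.3, 43.8 and 53.2 CPM. One flank had thus closed and the other opened around a start with overlapping values. Near Myc 1 region rose (chr15:61978751-61979400, 3.76 ± 0.40), 1 fell (chr15:61998701-61999500, -2.23 ± 0.35) and 3 did not pass, among them that over the start.

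Zeb2, the E-box repressor, combined the largest fall of a region near the selected genes after Tgfbr2 with 7 regions that rose. The region at chr2:44976251-44977650, outside the gene and 133 kb from the nearest start, had 114, 84.1 and 74.7 CPM in MEF and 3.86, 4.20 and 6.06 CPM in Stage 2 (-4.29 ± 0.23, edgeR adjusted p = 5.85e-32). A region inside the gene, at chr2:45037501-45038100, went from 1.19, 2.27 and 1.20 CPM to 12.7, 18.0 and 12.1 CPM (3.12 ± 0.35). At the starts of Zeb2 the sum was 37.4, 33.0 and 34.5 CPM against 31.4, 33.2 and 44.4 CPM and did not pass, and counted within 1 kb of either end of the gene the change was a rise of 1.26.

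Tead1 had 10 regions that rose and 5 that fell; its largest rise, chr7:112690851-112691900 inside the gene, went from 0.990, 2.95 and 2.41 CPM to 54.0, 46.2 and 47.8 CPM (4.58 ± 0.24). Runx1 had 3 that rose and 10 that fell, and Smad3 1 and 11. Tgfbr2 lost a region inside the gene, 22.3 kb from its start (chr9:116152601-116153450), which had 63.6, 58.5 and 59.0 CPM in MEF and 3.31, 1.80 and 4.04 CPM in Stage 2 (-4.30 ± 0.26), while a region 0.56 kb before the start rose by 1.30, with overlapping libraries.

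**Figure D5:**
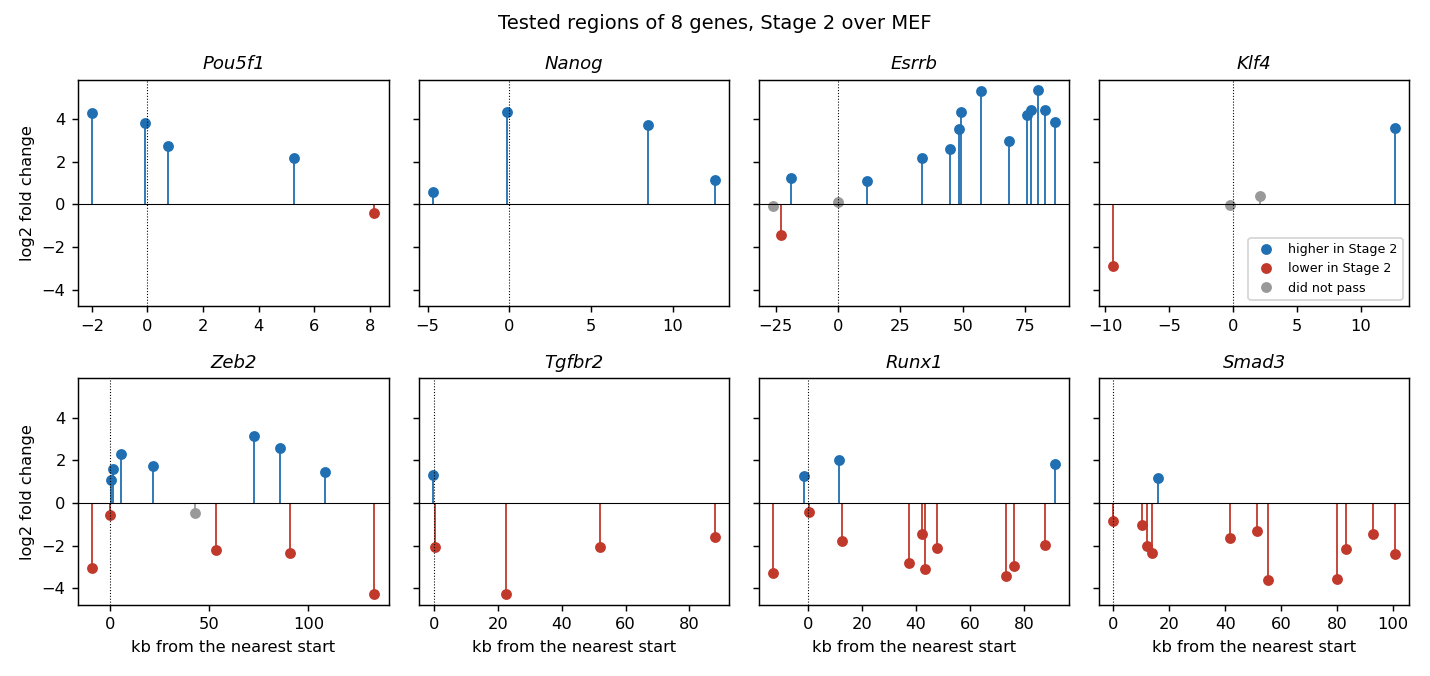
Log2 fold change of Stage 2 over MEF (y axis) for each tested region of 8 genes against its distance from the nearest start of the gene in kb (x axis), with colours for regions that were higher, lower or did not pass. Regions of Esrrb rise far inside the gene, up to 5.36, Klf4 has 1 region on each side of its start in opposite directions, and most regions of Smad3 fall.

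Across the genome, the 3 largest rises among regions whose mean log2 CPM was 2 or more, without overlap between groups, were as follows. A region of chromosome X, chrX:64978751-64979450, had 0 reads in the 3 MEF libraries and 37, 28 and 23 reads in Stage 2, at least 70.6-fold more when MEF is set to a floor of 3 reads over the group. It lies 68193 bp from the nearest protein-coding gene, Ctag2. Another at chr6:133511701-133512450, 16738 bp from Gm5885, also had 0 reads in MEF and 88 in Stage 2, at least 70.6-fold more. Inside Txlnb, chr10:17820301-17821100 had 2 reads in MEF and 173 in Stage 2. The ratio was 208, with an exact 95% interval of counting error from 56.7 to 1732. All ratios of these regions are per read in regions after TMM normalisation.

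The 3 largest falls were deeper in counts. At chr7:124670951-124671650, 271961 bp from Hs3st4, MEF had 172, 168 and 103 reads and Stage 2 had 0, 0 and 1, a ratio of 184 (32.9 to 7290). Inside Maob on chromosome X, chrX:16713851-16714550 had 221 reads in MEF and 1 in Stage 2, a ratio of 91.9 (16.3 to 3645). Inside Caln1, chr5:130622901-130623800 had 651 and 4 reads, a ratio of 67.7 (26.3 to 249). Of the regions that met the conditions, 21616 rose and 28477 fell. No sequence is printed for these regions, and whether they are exonic or intronic was not analysed here.

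Chromosome X carried 1.78% ± 0.0919 of the region reads in MEF and 2.06% ± 0.0628 in Stage 2 (SD, n = 3 each), without overlap between the groups (two-sided exact permutation test, p = 0.1, the smallest possible). Of 1422 tested regions on X, 46.5% rose and 32.3% fell, compared with 41.3% and 41.4% on the autosomes. Away from gene starts 54.5% of 961 X regions rose and 36.1% fell, with a median log2 fold change of 1.43 and quartiles of -2.56 and 4.00. Within 1 kb of a start 29.7% of 461 X regions rose and 24.3% fell, with a median of 0.05.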

How the data were processed

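For each of the 12 ATAC-seq libraries the authors deposited read counts per region, and for each stage a list of intervals. The submitters' processing notes name mm10, DESeq2 1.12.4, HTSeq 0.5.4p3, Bowtie2 2.2.6, SAMtools 0.1.19 and Picard 2.6.0, with no role for any tool; the peak caller and any shift of reads are not given in the sources used here. The deposited counts were used as they stand. The 5 summary rows of each library (reads outside regions and the like) stayed out of the tests and gave library totals and background; the share of reads in regions is printed in the report. Groups came from the titles.

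Counts were tested with edgeR 4.0.16 (R 4.3.3; TMM, filterByExpr with a count minimum of 10 and a total of 15, robust quasi-likelihood F test) in 1 model of the 4 groups, with Benjamini-Hochberg adjustment over all regions, genes or starts and a threshold of 0.05. Regions were linked to 21887 protein-coding genes within 10 kb (66.2% of regions linked, 14836 to several genes), and to gene starts within 1 kb; 17492 genes had starts in the RefSeq table of GRCm38.p6, and both gene ends were used for the rest. Expected background was the read density outside regions times width. Counting intervals are exact at 95% and cover counting error only.

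Named genes were 26 selected genes and, per list, the 2 largest called changes without overlap between the groups; other list members named in the text were chosen after their values were seen. A gene that this rule would name is not reported here. Named regions were the largest rise and fall per selected gene and the 3 largest of each genome-wide. The members, the 21 lists (526 entries) and the tests were chosen with earlier results of these data known. The alternatives were other scalings, filters, tools, links to genes, thinning, a replicate block and leaving out each library. Counts were also simulated with the same spread for all features and no difference between groups except at features changed on purpose. On these the test recovered 30, 12, 32 and 50 of 50 regions changed by -2, -1, 1 and 2 on the log2 scale (57057 regions). For genes it recovered 50, 48, 50 and 50 of 50 (17292 genes). In the data 82.6% of tested regions were called, so this recovery does not show how the scaling behaves with so many changes. Same-numbered libraries did not deviate together over the tested regions (r = -0.0644, 0.00102 and -0.0572), and the main tests did not pair them. Many of these regions have few reads, so the correlations cannot exclude a pairing.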

Additional observations from a re-analysis of the deposited data

How the results depend on the processing

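Scaling to all reads of a library changed the balance of calls: 64850 regions were lower, 1052 genes were higher and 14530 lower, and 12032 starts were called, 779 higher and 11253 lower. Under it the gene values of Pou5f1 (-0.13), Lin28a (-0.56), Klf4 (-0.97), Myc (-1.03), Dnmt3b (-0.88), Tead1 (-0.75), Ccnd3 (-0.58) and Ccnd1 (-0.66) turned negative, as did the starts of Esrrb (-0.98), Klf4 (-1.12), Myc (-1.05), Dnmt3b (-1.26), Prrx1 (-1.20), Zeb2 (-1.30) and Tead1 (-1.07); Nanog (0.05) and Cdh1 (0.43) no longer passed near the gene. The construction of that scale shows the source of the shift, the lower share of Stage 2 reads in regions. Thinning to equal reads in regions left 16697 regions and 2375 starts lower and turned Fosl1 to 0.19. Tested against a 2-fold change, 2681 genes (1767 higher, 914 lower) and 1539 starts (1260 higher, 279 lower) passed. Counting genes within 1 kb of either end gave 7754 calls, 3779 of them lower, and 1.26 for Zeb2; the cause was not tested.

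With DESeq2 70701 regions, 10687 genes and 6256 starts were called. A replicate block gave 58486 regions, 11758 genes and 7556 starts and changed the call of none of 62 named genes. Leaving out 1 library gave 57958 to 64312 regions, 10755 to 11736 genes and 6643 to 7616 starts, 14 to 16 selected genes with regions in both directions, and differences of -13.4 to -7.98 percentage points for the share of reads in regions, 2.48 to 3.47 for starts and 0.235 to 0.324 for chromosome X. The starts of Smad3 and Runx1 did not pass without Stage 2 replicate 1, Snai2 without Stage 2 replicate 2, Thy1 and Jun without Stage 2 replicate 3, and Jun also without MEF replicate 1. On the scale of the region test Dnmt3b (0.22) did not pass near the gene. The filter on low counts left 71069 of 115000 regions to test, and 83632 when it was applied to the 6 libraries alone.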

Other observations

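Reads on chromosome Y were 443 ± 159 in the MEF libraries and 616 ± 52.8 in the Stage 2 libraries (SD, n = 3 each; two-sided exact permutation test, p = 0.3), and their share of the region reads was 0.00916% and 0.0396% on average. Of 15 tested regions on this chromosome 12 rose and 1 fell.

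Among the starts tested, the AP-1 site had its highest share in promoters whose start fell, and that share was below the one over all windows. Its letters, TGANTCA, searched on both strands, were present in 3.53% of promoter windows whose start rose, 6.25% of those whose start fell and 4.06% of those that did not pass, beside 7.81% of all windows. In the class with falls of over 1 on the log2 scale the share was 12.8%, and these windows had a median GC content of 58.7% against 62.3% in the class with smaller falls.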
